A study of Mus musculus with 21 samples.

Results

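The transcriptomes of a pair of macrophage populations sorted from sham-operated mouse kidneys were compared gene by gene: kidney-resident macrophages (KRM) and macrophages with little or no surface CD11c (CD11cloMϕ). The comparison rests on 7 of the 21 libraries of the series, 4 of KRM and 3 of CD11cloMϕ, which were identified by the population, treatment and replicate number in the name of each column of the count table. All 7 came from kidneys of male C57BL/6J mice labelled as 24 weeks old that had undergone Sham surgery, the control for renal artery stenosis (RAS), in which a cuff narrows the renal artery. The labels name no genetic change and no drug for either group. Live CD45+ cells that stained for F4/80 and CD64 were split by CD11b and CD11c, so that KRM were intermediate for both proteins and CD11cloMϕ were high for CD11b and low or negative for CD11c, and a lineage gate had left out red cells, granulocytes and lymphocytes of the T, B and NK lineages. The flow sort took 5 hours according to the labels. They do not state whether each library holds the cells of 1 mouse, so the p-values measure the spread between these libraries. Of 34236 gene symbols in the table, 12399 had enough counts to be tested.

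Tissue macrophages come from more than one source. Some are seeded before birth and persist by dividing within the organ, while others are replaced from blood monocytes, and the kidney holds both. Resident kidney macrophages lie beside tubules and capillaries, take up dying cells and immune complexes, and present antigen on MHC class II. Cells that have recently left the blood still carry many transcripts of monocytes, among them genes of adhesion, migration and acute inflammation.

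Library totals were 8739621 to 18592376 counts in KRM and 8573925 to 9702806 counts in CD11cloMϕ, and 15023 to 17247 genes were counted in a library. Expression is given as CPM, counts scaled to a common library size with TMM factors and not corrected for gene length, so values are compared between populations and not between genes. A fold change is KRM relative to CD11cloMϕ on the log2 scale, and a gene is called higher or lower where edgeR's quasi-likelihood test gave an adjusted p under 0.05 and the fold was above 2. The first principal component, with 65.8% of the variance of the 7 libraries, separated the populations. The second, with 20.7%, set replicate 3 of CD11cloMϕ and replicate 3 of KRM apart from the other 5. In those 2 libraries the summed level of 12 proximal tubule genes was 11099 and 9007 CPM, against 384 to 1455 CPM in the others, and the results below were repeated without them.

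Over all genes, 2892 of 12399 were called (23.3%), of which 1472 were higher in KRM (11.9% of genes tested) and 1420 were lower (11.5%). The median log2 fold change of all genes tested was -0.04, and the counts and medians of the gene lists can be read against these shares and this median. Differences above 8-fold were found for 323 genes higher and 492 lower, and above 32-fold for 112 higher and 219 lower. In 2842 of the called genes the 2 groups of libraries did not overlap, and among all genes tested they did not overlap for 3014 with the higher levels in KRM and 2983 with the lower. Among called genes, 55 of those higher had 0 counts in all CD11cloMϕ libraries, 36 of them immunoglobulin genes, and 14 of those lower had 0 counts in all KRM libraries. The fitted fold of such genes has no firm size, and those genes form the slanted edges in the plot of all genes.

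**Figure D1:**
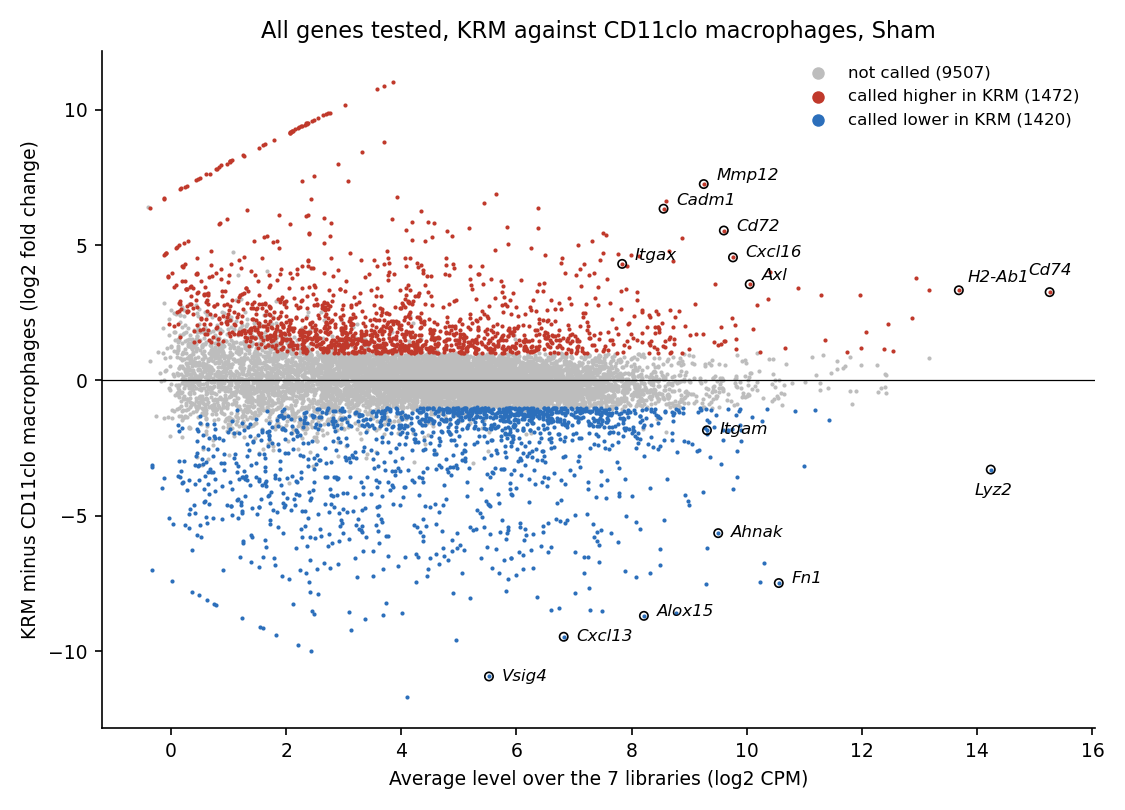
Log2 fold change, KRM against CD11clo macrophages, plotted against the average level of each of the 12399 genes tested (log2 CPM over the 7 libraries), with genes called higher in KRM in red, genes called lower in blue and genes not called in grey. Called genes are present at every level, from under 1 CPM to Cd74 and Lyz2 at the right edge, and the slanted edges are genes with 0 counts in one of the groups.

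The transcripts of the sorting proteins, which cannot count as findings, followed the gates. Itgam, which encodes CD11b, was at 245, 292, 339.7 and 324 CPM in the KRM libraries and at 1324, 1065 and 843 CPM in the CD11cloMϕ libraries. Itgax, which encodes CD11c, was at 350.4, 369.5, 393 and 425 CPM in KRM and at 12.5, 18.3 and 27.4 CPM in CD11cloMϕ. Both separated the populations in the direction of the gate. Adgre1, which encodes F4/80, differed by 1.05 on the log2 scale, Fcgr1, which encodes CD64, by 1.10, and the pan-leukocyte gene Ptprc (CD45) by -0.68. Of the other proteins by which the study told the populations apart, Fcgr4 (log2 fold change 3.37), Cx3cr1 (1.97), Mertk (1.65) and Spn (1.57) were higher in KRM and the monocyte gene Ly6c2 was lower (-6.81). Adgre1 was no longer called without CD11cloMϕ replicate 3, at 0.86. Fcgr1 was no longer called without CD11cloMϕ replicate 3, at 0.93. Adgre1 (0.91, adjusted p = 0.000616) was not called without both libraries numbered 3. Adgre1 (1.08, adjusted p = 0.168) and Fcgr1 (1.13, adjusted p = 0.142) were not called in 1 edgeR fit over all 6 groups.

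Lists of marker genes gave the makeup of the sorted cells. Of 18 general macrophage genes, 8 were called higher in KRM, 2 were called lower and 8 were not called, and without CD11cloMϕ replicate 3 the number higher was 5. Of the 8, Adgre1, Fcgr1 and Mertk encode proteins by which the populations were sorted or told apart. Csf1r, the receptor for macrophage colony-stimulating factor, was at 3636 ± 54.9 CPM in KRM against 2229.5 ± 256 CPM in CD11cloMϕ (SD, n = 4 and n = 3 here and below). Lyz2, which encodes lysozyme, was at 39575 ± 7857 CPM in CD11cloMϕ and 4035 ± 392.3 CPM in KRM (log2 fold change -3.29, standard error 0.193, adjusted p = 8.58e-06). The 12 genes of classical monocytes, one of them the gating gene Ly6c2, were all called lower in KRM, with a summed level of 609 to 886 CPM in KRM and 7455 to 20138 CPM in CD11cloMϕ. Of 10 genes of nonclassical monocytes 8 were lower and 2 were higher, the gating gene Spn and the transcription factor gene Pou2f2 (1.24), and 6 of the 10 were called in 1 edgeR fit over all 6 groups. The sum was 489.5 to 562 CPM in KRM and 2707 to 3694 CPM in CD11cloMϕ. Of 15 neutrophil genes 9 had enough counts for the test and each was lower, the sums being 118 to 145 CPM in KRM and 1284 to 3144 CPM in CD11cloMϕ, while the granule and lineage genes Camp, Mpo and Ly6g had 0 counts in KRM and reached at most 1.01 CPM on average in CD11cloMϕ. Markers of mast cells, basophils and eosinophils summed to 4.61 to 11 CPM in KRM and 215 to 529.8 CPM in CD11cloMϕ. Of 11 such genes 5 were tested, of which 2 were lower in KRM and 3 were not called. Most of that sum was Ccr3 and Siglecf, and the eosinophil granule gene Epx had 0 counts in every library. In bulk RNA, fewer cells of a type and less RNA per cell cannot be told apart. Pou2f2 (1.26, adjusted p = 0.0773) was not called in 1 edgeR fit over all 6 groups.

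**Figure D2:**
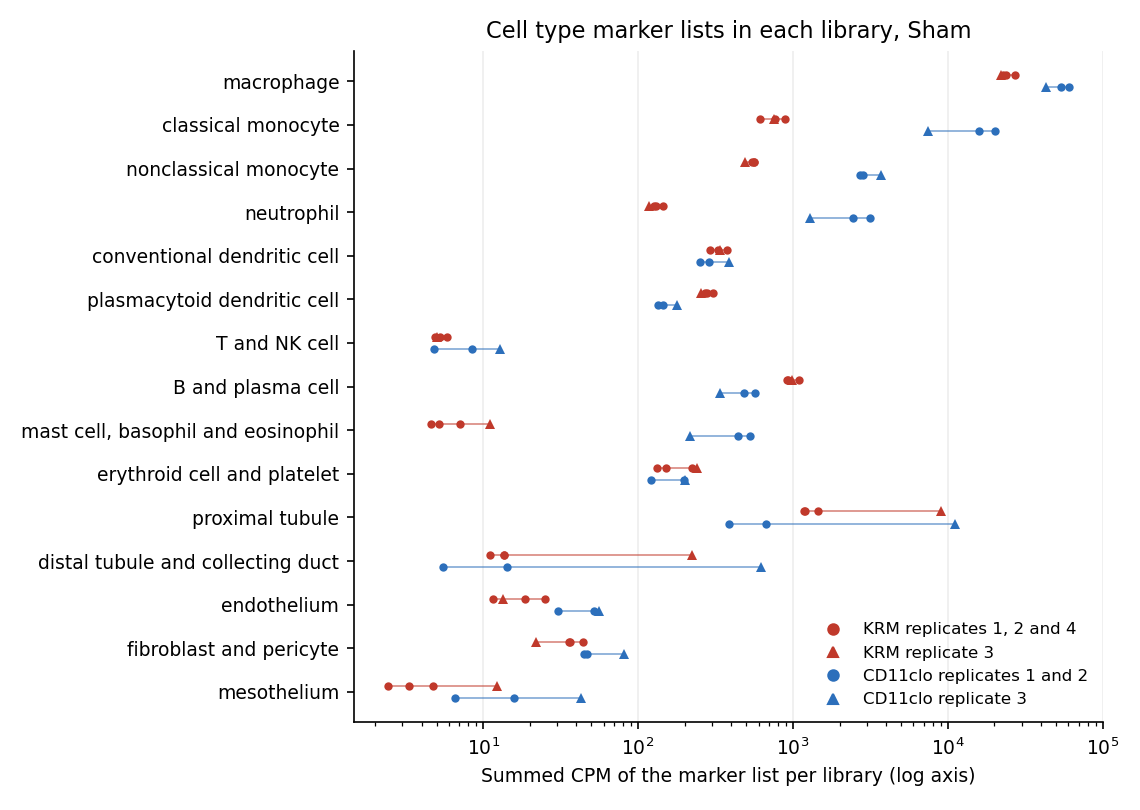
Summed CPM of each cell type marker list in each library on a log axis, with KRM in red above and CD11clo macrophages in blue below, triangles for replicate 3 and a line over the range of each group. The classical monocyte, nonclassical monocyte and neutrophil sums do not overlap between the populations, and the tubule sums of both triangles lie far to the right of their groups.

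Sums of T and NK cell markers were 4.85 to 5.82 CPM in KRM and 4.82 to 12.8 CPM in CD11cloMϕ, of endothelial markers 11.6 to 25.1 CPM in KRM and 30.2 to 55.5 CPM in CD11cloMϕ, and of fibroblast and pericyte markers 22 to 43.8 CPM in KRM and 44.5 to 81.5 CPM in CD11cloMϕ. These lists held 37 genes, of which 13 could be tested. The 3 that were called were all lower in KRM: Cd2, an adhesion receptor best known from T cells (-3.91), Flt1, a receptor for vascular endothelial growth factor (-4.78), and Acta2, smooth muscle actin (-4.88). That direction was not kept throughout: without CD11cloMϕ replicate 3, and without both libraries numbered 3, the T and NK cell list had 1 gene higher and 1 lower and the endothelial list 1 higher and 2 lower. The fibroblast and pericyte list kept its direction without CD11cloMϕ replicate 1, with 0 higher and 2 lower. None of the 12 proximal tubule genes was called, but without the 2 libraries numbered 3 the list had 7 genes higher in KRM and a median of 1.24 where it had been -0.86 with them. It had 5 higher without CD11cloMϕ replicate 3 alone and 1 higher with the replicate number as a block. Distal tubule markers summed to 11 to 223 CPM in KRM and 5.53 to 620.5 CPM in CD11cloMϕ, with replicate 3 of each population at the top, and none of 3 tested was called, though 1 was higher without both libraries numbered 3. Of 5 tested erythroid and platelet genes 2 were lower and 3 were not called. With the replicate number as a block 2 of these 5 were higher and 2 lower, and without both libraries numbered 3 there was 1 lower. Of 4 tested genes of plasmacytoid dendritic cells 2 were higher and 2 were not called. Conventional dendritic cell genes were mixed, with 3 higher, 2 lower and 6 not called of 11 tested. The number higher was 5 without CD11cloMϕ replicate 3, and also without both libraries numbered 3, and the number lower was 1 without KRM replicate 2. Clec9a, a receptor of cross-presenting dendritic cells, was higher in KRM at 23.4, 34.8, 26 and 38.9 CPM against 0.643, 1.8 and 0.109 CPM, and Xcr1, the chemokine receptor of the same dendritic cells, was at 6.21 ± 2.23 CPM in KRM against 1.6 ± 0.843 CPM in CD11cloMϕ. Cd209a, a lectin of monocyte-derived dendritic cells, was lower (-2.06), although the ranges of the groups overlapped. Zbtb46 and Flt3, which define conventional dendritic cells, were not called, with log2 fold changes of -0.47 and 0.36. Clec9a had a log2 fold change of 6.31 without CD11cloMϕ replicate 2. Cd209a had a log2 fold change of -1.36 without CD11cloMϕ replicate 3. Cd209a was no longer called without KRM replicate 2, at -1.94. Cd209a (-2.05, adjusted p = 0.0626) and Xcr1 (1.98, adjusted p = 0.0628) were not called in 1 edgeR fit over all 6 groups. Xcr1 (0.83, adjusted p = 0.0665) was not called with limma on the log2 table. Cd209a (-1.73, adjusted p = 0.0568) was not called with limma and no filter.

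Among genes of moderate or high level, 2 of the 3 largest differences in favour of KRM were in matrix-degrading enzymes. Mmp12, the macrophage elastase, was at 883, 1077, 947 and 1337 CPM in the KRM libraries and at 6.32, 2.76 and 11.6 CPM in the CD11cloMϕ libraries (log2 fold change 7.26, standard error 0.501, adjusted p = 1.98e-05). Mmp13, an interstitial collagenase, was at 574, 690.4, 641 and 795 CPM in KRM and at 12.1, 4.69 and 3.39 CPM in CD11cloMϕ (log2 fold change 6.64, standard error 0.472, adjusted p = 2.27e-05). The genes lie near each other on chromosome 9 of GRCm38, at chr9:7344381-7369499 and chr9:7272514-7283331. Across the family of metalloproteinases and their inhibitors the populations divided by member: of 14 tested, 4 were higher in KRM, 4 were lower and 6 were not called (median -0.87). Besides these 2, Adam33, a membrane-anchored metalloproteinase, was higher, at 60.1 ± 4.92 CPM in KRM against 4.47 ± 1.2 CPM in CD11cloMϕ (3.75), and Mmp14, a membrane-bound enzyme that activates other metalloproteinases, was higher, at 84.7 ± 14 CPM in KRM against 12.4 ± 4.53 CPM in CD11cloMϕ (2.77). The 4 lower in KRM were the gelatinase Mmp9, the neutrophil collagenase Mmp8 (-7.13), Adam8 (-6.51) and Mmp19 (-5.14). Of these, Mmp9 and Mmp8 are also on the list of neutrophil genes given above. The inhibitor Timp2 was at 561 ± 36.6 CPM in KRM against 319 ± 139 CPM in CD11cloMϕ, a difference under 2-fold. Mmp13, Mmp19 and Mmp8 had log2 fold changes of 7.40, -3.95 and -6.27 without CD11cloMϕ replicate 1. Mmp12 had a log2 fold change of 7.85 without CD11cloMϕ replicate 3.

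The other 10 genes selected for the largest change upward had varied functions. Cadm1, an adhesion molecule of the immunoglobulin superfamily (chr9:47530173-47857637), was at 691, 666, 610.2 and 637 CPM in KRM and at 9.43, 7.09 and 7.43 CPM in CD11cloMϕ, and its 3 low libraries stayed under 10 CPM. Nes, which encodes the intermediate filament nestin, was at 89.6, 75.2, 75 and 106 CPM in KRM and had 0 counts in 1 CD11cloMϕ library. Cd72, an inhibitory C-type lectin co-receptor otherwise known from B cells, was at 1586, 1360.5, 1166 and 1232 CPM in KRM and at 36.1, 30.5 and 19.5 CPM in CD11cloMϕ (log2 fold change 5.54, standard error 0.273, adjusted p = 4.26e-06). Slamf9, a receptor of the SLAM family, was at 971, 766, 725 and 746 CPM against 23.7, 18 and 20.1 CPM. For both of these receptors the lowest KRM library lay far above the highest CD11cloMϕ library. Cd4, the co-receptor that binds MHC class II and is best known from helper T cells, was at 106, 106, 103 and 75.7 CPM in KRM and at 3.86, 1.44 and 0.437 CPM in CD11cloMϕ (log2 fold change 5.65, standard error 0.541, adjusted p = 0.000106), while Cd3e, a defining T cell gene, was at 0.544 and 0.55 CPM. Ch25h, the enzyme that makes 25-hydroxycholesterol, was at 159, 141, 122 and 151 CPM in KRM and at 2.68, 5.29 and 0.765 CPM in CD11cloMϕ. Srpk3, a kinase of splicing factors (6.39), Zmynd15 (5.36), the membrane protein gene Lrrc3 (6.57) and Matn2, a matrix protein (5.64), completed the group. Their adjusted p-values lay between 2.35e-06 and 0.00219. Cd4 and Nes had log2 fold changes of 6.72 and 7.93 without CD11cloMϕ replicate 1. Ch25h and Matn2 had log2 fold changes of 6.37 and 9.89 without CD11cloMϕ replicate 2. Lrrc3 and Nes had log2 fold changes of 8.31 and 6.32 without CD11cloMϕ replicate 3.

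**Figure D3:**
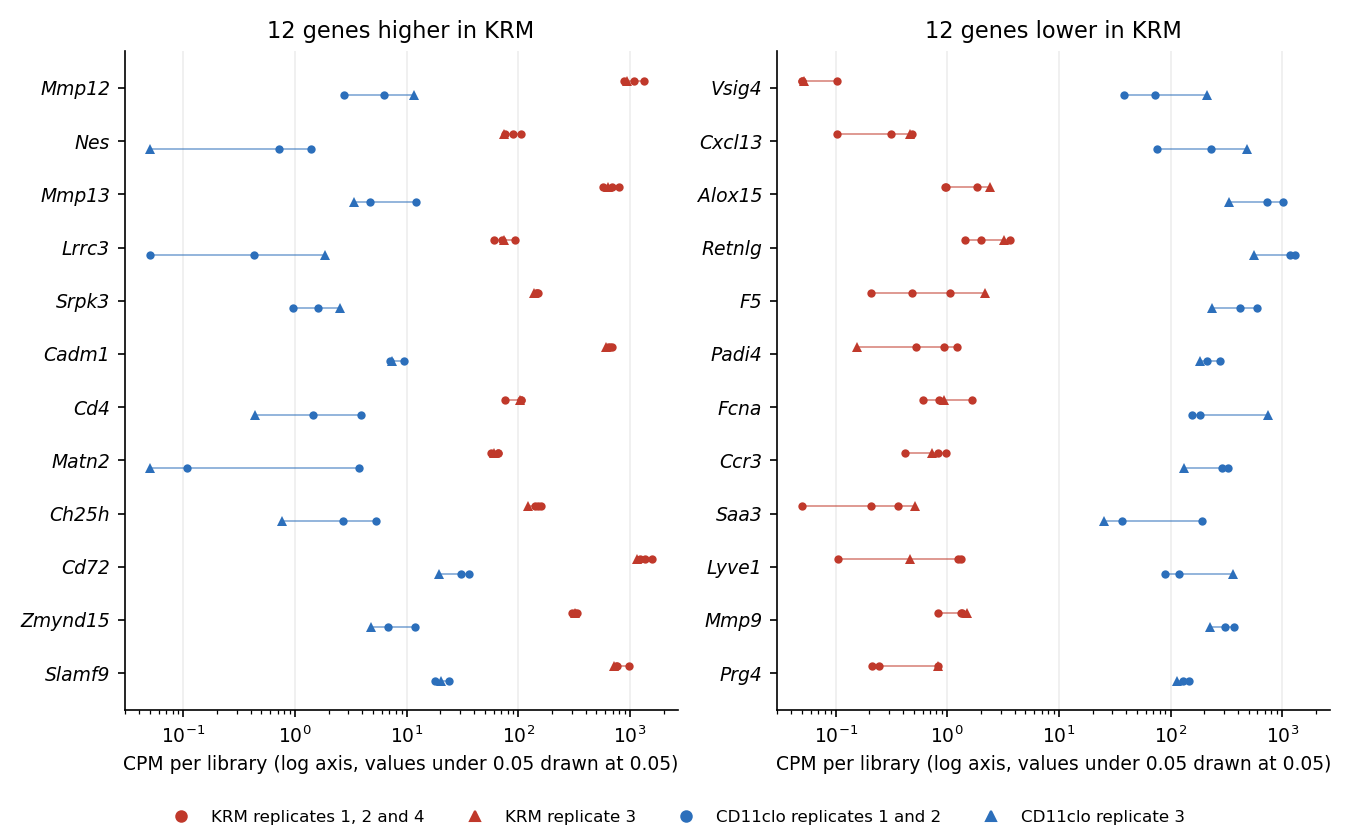
CPM of the 12 genes with the largest differences in each direction in every library, on a log axis, with KRM in red and CD11clo macrophages in blue, triangles for replicate 3 and lines over the range of each group. By the rule of selection the groups do not overlap for these genes, and CD11clo replicate 3 is the highest of its group for Vsig4, Cxcl13, Fcna and Lyve1 and the lowest for Alox15, Retnlg, F5 and Ccr3.

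In the opposite direction the largest differences were in genes that KRM hardly transcribed. Vsig4, a receptor for complement fragments (chrX:96247203-96293438), had 2 counts in all 4 KRM libraries together and was at 72.5, 38.5 and 209.7 CPM in CD11cloMϕ, a ratio of pooled counts of 2547 (95% exact interval 704 to 21043). Cxcl13, the chemokine that attracts B cells, was at 228, 75 and 486 CPM in CD11cloMϕ and at 0.485, 0.315, 0.465 and 0.103 CPM in KRM. Fcna, which encodes the lectin ficolin A, was at 183, 154 and 749 CPM in CD11cloMϕ and Lyve1, a hyaluronan receptor, was at 119, 88.8 and 361 CPM, while neither passed 2 CPM in KRM. All 4 genes were highest in replicate 3 of CD11cloMϕ. Alox15, which encodes 12/15-lipoxygenase, was at 726, 1009 and 334 CPM in CD11cloMϕ and at 0.97, 0.946, 2.43 and 1.86 CPM in KRM (log2 fold change -8.70, standard error 0.511, adjusted p = 8.58e-06). F5, coagulation factor V, was at 414, 594 and 236 CPM and at 0.485, 1.05, 2.17 and 0.206 CPM. Ccr3, the eotaxin receptor, was at 290.1, 325 and 132 CPM in CD11cloMϕ, and Retnlg, a resistin-like secreted protein, at 1168, 1312 and 562 CPM, although reads of Retnlg may be shared with its close relatives. These 4 were lowest in replicate 3, so the 3 CD11cloMϕ libraries differed in which of these genes they held. Padi4, an enzyme that converts arginine to citrulline in proteins (-8.49), Mmp9 (-7.86), Prg4, which encodes lubricin (-7.79), and the acute-phase gene Saa3 (-8.06) were the other 4. The sums of monocyte markers, of neutrophil markers and of mast cell, basophil and eosinophil markers were lower in KRM as well. Ccr3, Retnlg and Mmp9 are themselves on these marker lists. The part of such markers in these differences was not tested. All 24 genes of this selection were still called without the libraries numbered 3. Saa3 had a log2 fold change of -6.64 without CD11cloMϕ replicate 1. Cxcl13, Fcna and Lyve1 had log2 fold changes of -8.67, -7.37 and -7.14 without CD11cloMϕ replicate 3. F5 and Saa3 had log2 fold changes of -9.42 and -8.73 without KRM replicate 3. For Vsig4, the fitted log2 fold change, which depends on the prior count at so few counts, was -10.94 with all libraries and -10 without CD11cloMϕ replicate 3.

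Genes of MHC class II presentation and costimulation were higher in KRM as a group. Class II molecules display peptides from engulfed proteins to helper T cells, the invariant chain Cd74 guides them to the endosome, and Ciita switches their transcription on. Of 18 genes tested 15 were higher in KRM, 1 was lower and 2 were not called (median 2.36), and the counts were the same without the libraries numbered 3. Cd74 took more counts than any other gene in KRM, at 81109, 61502, 53193 and 58346 CPM, against 5223, 6467 and 8164 CPM in CD11cloMϕ (log2 fold change 3.26, standard error 0.254, adjusted p = 3.57e-05). H2-Ab1 was at 26958, 19928, 18629 and 19991 CPM in KRM and 1807, 2181 and 2379 CPM in CD11cloMϕ, H2-Aa differed by 3.34 and H2-Eb1 by 3.78. The populations did not overlap for any of these chains, and replicate 1 was the highest KRM library for all 4. H2-Ob, a regulator of peptide loading, was at 87.5 ± 8.66 CPM in KRM against 6.89 ± 3.57 CPM in CD11cloMϕ (3.66), and its partner H2-Oa differed by 2.70. Ciita was at 294, 308, 247 and 379.7 CPM in KRM and at 52.2, 62.9 and 76.4 CPM in CD11cloMϕ (log2 fold change 2.27, standard error 0.195, adjusted p = 5.93e-05). Among the genes with the most counts in KRM were Cd74, H2-Ab1, H2-Aa and H2-Eb1, and among those in CD11cloMϕ were Lyz2, Cd74, Fos and Tmsb4x, which encodes an actin-binding peptide. Reads can be shared among class II genes, so the split between chains is uncertain.

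The costimulatory members did not all follow the class II chains. Cd86 was at 479, 503, 493 and 448 CPM in KRM and at 96.2, 82.6 and 90.7 CPM in CD11cloMϕ, and Icosl, the ligand of the T cell receptor ICOS, differed by 2.82. Cd80, which binds the same T cell receptors as Cd86, went the other way, at 4.37, 5.25, 5.47 and 4.64 CPM in KRM and 32.3, 30.9 and 21.3 CPM in CD11cloMϕ (log2 fold change -2.51, standard error 0.211, adjusted p = 5.29e-05). Cd40 and Cd274, which encodes PD-L1, were not called, at -0.36 and 0.06.

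The promoters of class II genes share elements known as the X box and the Y box, bound by the factors that recruit Ciita. Their letters were searched in the RefSeq promoter table of GRCm38.p6, in the 250 bases before each start, as CTNGNAAC followed by GATTGG on the same strand with at most 40 bases between them, on either strand. The pattern was set after the promoters had been read, so its matches are a description. It was present in 48 of 32851 promoter entries (0.146%) and, of the 7 class II genes of the list that the table holds, in 4: H2-Aa, H2-Eb1, H2-DMb1 and H2-Ob. The table has no entry for H2-Ab1 and Cd74. The last 120 bases before the start of 3 of these genes are shown 5′ to 3′ on the strand of the gene, with the matched letters in capitals, as examples of the pattern. The pattern was not found for H2-DMa, H2-DMb2 and H2-Oa, which were called higher in KRM as well (1.71, 1.29 and 2.70).
H2-Aa, chr17:34287824-34287943, - strand: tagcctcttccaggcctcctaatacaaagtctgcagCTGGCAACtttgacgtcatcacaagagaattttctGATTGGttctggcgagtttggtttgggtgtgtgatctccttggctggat
H2-Eb1, chr17:34305747-34305866, + strand: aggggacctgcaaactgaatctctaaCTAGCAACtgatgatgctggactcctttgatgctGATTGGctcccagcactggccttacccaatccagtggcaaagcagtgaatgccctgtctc
H2-Ob, chr17:34238785-34238904, + strand: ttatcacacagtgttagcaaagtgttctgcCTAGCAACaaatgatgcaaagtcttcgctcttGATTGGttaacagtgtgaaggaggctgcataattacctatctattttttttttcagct
In the promoters shown, the first match began 84 to 94 bases before the start and the gap to the second was 24 to 27 bases. H2-Aa, H2-Eb1 and H2-Ob were called higher in KRM by 3.34, 3.78 and 3.66 on the log2 scale. H2-DMb2 was no longer called without CD11cloMϕ replicate 2, at 0.99. H2-DMb2 (1.30, adjusted p = 0.125) was not called in 1 edgeR fit over all 6 groups.

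Complement genes were called in both directions in equal number. Complement C1q, which macrophages secrete, starts the classical pathway, C3 is the component on which all pathways meet, and fragments of C3 and C5 attract and activate myeloid cells through their receptors. Of 20 tested, 7 were higher in KRM, 7 were lower and 6 were not called (median 0.17). The 3 chains of C1q and the receptors for C3a and C5a were on the KRM side. C1qb was at 8447, 6085, 5425 and 5727 CPM in KRM and at 661, 564 and 935 CPM in CD11cloMϕ (log2 fold change 3.16, standard error 0.258, adjusted p = 4.57e-05). C3ar1 was at 602, 612, 678 and 632 CPM and at 114, 96.5 and 102 CPM (2.60), and C5ar1 and C5ar2, the receptors for C5a, differed by 1.07 and 2.32. C2, which forms the convertase with C4, was higher, at 27.6 ± 4.26 CPM in KRM against 3.79 ± 1.96 CPM in CD11cloMϕ. On the other side, C3 itself was at 921, 913 and 699 CPM in CD11cloMϕ and at 16.6, 24.8, 27.5 and 25.5 CPM in KRM (log2 fold change -5.16, standard error 0.212, adjusted p = 1.98e-06), properdin (Cfp), which stabilises the alternative convertase, differed by -4.17, C4b by -3.29 and the protective surface protein Cd55 by -4.32. The C3 levels of the populations lay far apart in every library. C5ar1 was no longer called without CD11cloMϕ replicate 2 or KRM replicate 1, at 0.98 to 1.00. C5ar1 (1.09, adjusted p = 0.189) was not called in 1 edgeR fit over all 6 groups.

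Of 9 receptors for immunoglobulin tested, 5 were higher in KRM, 1 was lower and 3 were not called (median 1.02). The 5 include Fcgr1 and Fcgr4, which encode proteins used to sort or tell apart the populations and so cannot count as findings, and Trim21, an intracellular receptor for antibody (1.02). Fcgr2b, the inhibitory Fcγ receptor, was at 1075, 960.0, 853 and 904 CPM in KRM and 377, 305 and 378 CPM in CD11cloMϕ (log2 fold change 1.42, standard error 0.143, adjusted p = 0.000135), and Fcgrt, the receptor that rescues IgG from degradation, differed by 1.38. The shared signalling chain Fcer1g was at 1500.1 ± 322 CPM in KRM against 1272 ± 214 CPM in CD11cloMϕ and was not called. Fcrls, an Fc receptor-like gene best known from microglia, was lower in KRM (-2.72). Trim21 was no longer called without CD11cloMϕ replicate 3 or KRM replicate 2 or 4, at 0.87 to 1.00. Trim21 (0.97, adjusted p = 0.00541) was not called with the replicate block. Trim21 (0.95, adjusted p = 0.00105) was not called without both libraries numbered 3. Trim21 (1.05, adjusted p = 0.132) was not called in 1 edgeR fit over all 6 groups.

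Immunoglobulin transcripts themselves were present in both populations and higher in KRM. Of 249 immunoglobulin genes in the count table, 57 passed the filter on low counts, of which 47 were called higher in KRM and 0 lower. As 38 of the 57 had 0 counts in all CD11cloMϕ libraries, the filter could be passed through KRM alone and these counts show no more than where the transcripts were. The genes summed to 1786, 1403, 1785 and 1398 CPM in KRM and to 274, 346 and 235 CPM in CD11cloMϕ. The groups did not overlap. Ighm, the heavy chain of IgM, was at 666, 577, 531 and 522 CPM against 167, 285 and 219 CPM (log2 fold change 1.36, standard error 0.196, adjusted p = 0.000925), and the light chain Igkc was at 463, 343, 469.7 and 347 CPM against 36.8, 25 and 2.41 CPM (4.24). Jchain, which joins IgM and IgA into polymers, was at 368 ± 52.9 CPM in KRM against 14.5 ± 15.9 CPM in CD11cloMϕ (log2 fold change 4.66, standard error 1, adjusted p = 0.00667). Of 7 tested genes of B and plasma cells 4 were higher and 3 were not called. Blnk, an adaptor of B cell receptor signalling that macrophages also express, was higher in KRM (3.91), as was the receptor chain Cd79b (2.98). Defining B cell genes were at or near 0: Pax5 had 0 counts in every library, and the mean of Ms4a1 was at most 0.542 CPM in either population. Immunoglobulin variable genes resemble each other, so counts of single members are uncertain. Igkc and Jchain had log2 fold changes of 4.90 and 5.96 without CD11cloMϕ replicate 1. Blnk had a log2 fold change of 4.85 without CD11cloMϕ replicate 3. Ighm (1.38, adjusted p = 0.108) was not called in 1 edgeR fit over all 6 groups.

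Chemokines were called in both directions. Of 21 tested, 6 were higher in KRM, 10 were lower and 5 were not called (median -1.11). On the KRM side, Cxcl16, a membrane-bound chemokine and scavenger receptor, was at 1712, 1416, 1349.6 and 1396 CPM against 55.2, 65.7 and 67.6 CPM in CD11cloMϕ (log2 fold change 4.55, standard error 0.168, adjusted p = 1.38e-06). Ccl4 and Ccl3, which attract monocytes and T cells, were higher by 2.79 and 1.51, with Ccl4 at 1936, 1662, 1098 and 2628 CPM in KRM and 142, 414 and 238 CPM in CD11cloMϕ. Ccl12, Ccl5 and Cxcl14 were the other 3, at 2.36, 2.07 and 3.41. On the CD11cloMϕ side stood the neutrophil attractants Cxcl1 (-4.01), Cxcl2 (-2.85) and Cxcl3 (-4.52) and the monocyte attractants Ccl2 (-3.34) and Ccl7 (-3.25). Ccl2 was at 279, 469 and 349.6 CPM in CD11cloMϕ and at 36.5, 36.4, 22.2 and 49.6 CPM in KRM. Ccl6, a myeloid chemokine, took the most counts of the list in CD11cloMϕ, at 4804, 4589 and 2946 CPM, against 551, 449.7, 421 and 412 CPM in KRM. Ccl24, a ligand of Ccr3, was at 58.1 ± 24 CPM in CD11cloMϕ and 0.515 ± 0.36 CPM in KRM (-6.80). The interferon-induced Cxcl9 and Cxcl10 were not called. Cxcl1 had a log2 fold change of -3.27 without CD11cloMϕ replicate 3. Ccl12 (2.40, adjusted p = 0.0748) was not called in 1 edgeR fit over all 6 groups.

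Among the receptors for chemokines and other attractants, 15 were tested, 4 were higher in KRM, 7 were lower and 4 were not called (median -1.07), with the gating gene Cx3cr1 among the 4 higher, and 7 were called in 1 edgeR fit over all 6 groups. Cxcr3, the receptor for Cxcl9 and Cxcl10, was at 23, 21.2, 22.6 and 23.8 CPM in KRM and at 2.36, 1.08 and 0.765 CPM in CD11cloMϕ (log2 fold change 4.00, standard error 0.381, adjusted p = 0.000104). Ccr1 was lower, at 197 ± 95.1 CPM in CD11cloMϕ and 16.1 ± 1.1 CPM in KRM (-3.61), as was Cxcr2, the receptor for Cxcl1 and Cxcl2 (-5.82). Ccr2, through which monocytes leave the marrow, was at 499, 651, 644 and 776 CPM in KRM and at 1980.2, 1352 and 708 CPM in CD11cloMϕ (log2 fold change -1.07, standard error 0.314, adjusted p = 0.0261), and the ranges of the groups overlapped. Cxcr3 had a log2 fold change of 4.62 without CD11cloMϕ replicate 1. For Cxcr2, the fitted log2 fold change, which depends on the prior count at so few counts, was -5.82 with all libraries and -5.03 without CD11cloMϕ replicate 1. Ccr2 was no longer called without CD11cloMϕ replicate 1 or 2 or KRM replicate 1, 2 or 3, at -1.07 to -0.67. Ccr2 (-1.03, adjusted p = 0.0791) was not called in 1 edgeR fit over all 6 groups. Ccr2 (-0.71, adjusted p = 0.11) was not called with limma on the log2 table.

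**Figure D4:**
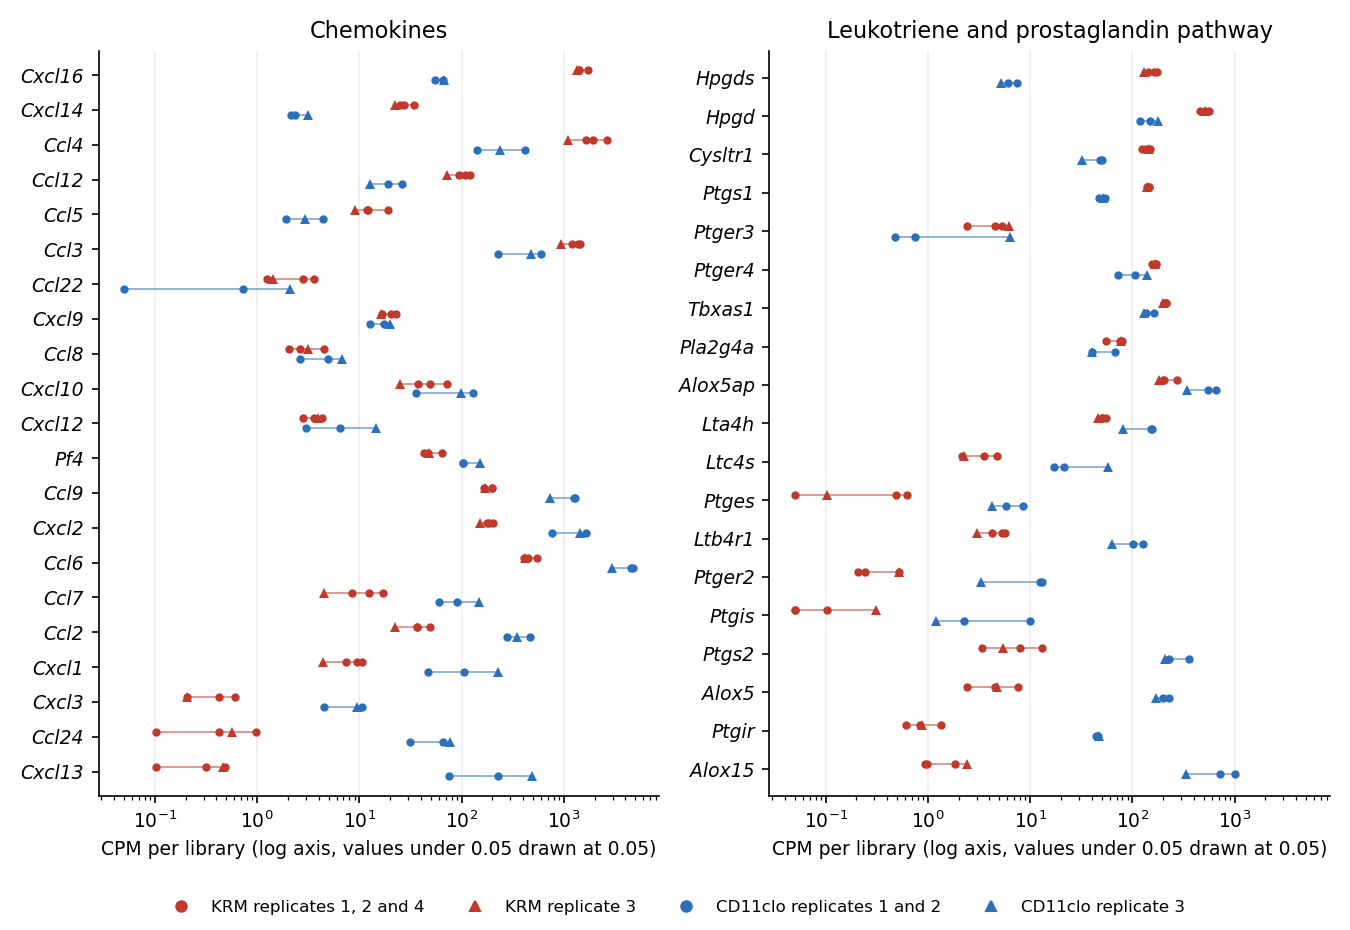
CPM in every library of the 21 chemokines and the 19 leukotriene and prostaglandin genes tested, ordered by log2 fold change from KRM-high at the top to CD11clo-high at the bottom, on a log axis with KRM in red, CD11clo macrophages in blue and triangles for replicate 3. Cxcl16 and Hpgds lead the KRM side and Cxcl13 and Alox15 the CD11clo side, while Ccl22, Cxcl9, Ccl8 and Ptger3 overlap.

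The enzymes and receptors of leukotrienes and prostaglandins were called in both directions. Of 19 tested, 4 were higher in KRM, 11 were lower and 4 were not called (median -1.35). Besides Alox15, Alox5, which starts leukotriene synthesis, was at 201, 227 and 171 CPM in CD11cloMϕ and at 4.49, 2.42, 4.7 and 7.63 CPM in KRM (log2 fold change -5.37, standard error 0.328, adjusted p = 1.04e-05), and its activating protein Alox5ap, the hydrolase Lta4h, the synthase Ltc4s and the leukotriene B4 receptor Ltb4r1 were lower in KRM by log2 fold changes of -1.26, -1.35, -3.35 and -4.44. Cysltr1, a receptor for the cysteinyl leukotrienes, was higher in KRM (1.67). The inducible cyclooxygenase Ptgs2 was at 357, 226 and 207 CPM in CD11cloMϕ and at 3.4, 7.98, 5.47 and 13 CPM in KRM (-5.15), and Ptges, which makes prostaglandin E2, was lower in KRM as well (-4.39). The constitutive cyclooxygenase Ptgs1 went the other way, at 145, 144, 139.9 and 138 CPM in KRM and 46.9, 53.7 and 52 CPM in CD11cloMϕ (log2 fold change 1.48, standard error 0.102, adjusted p = 1.99e-05). Hpgds, the hematopoietic prostaglandin D synthase, was at 162, 174, 131 and 142 CPM in KRM and 7.39, 6.01 and 5.14 CPM in CD11cloMϕ (log2 fold change 4.62, standard error 0.189, adjusted p = 1.98e-06), and Hpgd, which inactivates prostaglandins, differed by 1.78. The prostacyclin receptor Ptgir and the E2 receptor Ptger2 were lower in KRM (-5.61 and -4.61), while the E2 receptor Ptger4 did not reach 2-fold (0.65). Neutrophils and eosinophils are known for lipoxygenases. The sums of neutrophil markers and of mast cell, basophil and eosinophil markers were higher in CD11cloMϕ as given above. The second sum was mostly Ccr3 and Siglecf. The part of these markers in the differences was not tested. Ltc4s had a log2 fold change of -2.62 without CD11cloMϕ replicate 3. Ptges had a log2 fold change of -5.04 without KRM replicate 4. Alox5ap (-0.96, adjusted p = 0.00373) was not called with limma on the log2 table.

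Of 24 cytokines and receptors tested, 6 were higher in KRM, 10 were lower and 8 were not called (median -0.40). Both chains of the interleukin-10 receptor were higher: Il10ra was at 998, 1008, 940.0 and 1117 CPM in KRM and 423, 409 and 376 CPM in CD11cloMϕ (log2 fold change 1.34, standard error 0.121, adjusted p = 7.72e-05), and Il10rb differed by 1.99. The ligand Il10 was at 13.9 ± 17.9 CPM in CD11cloMϕ and 0.59 ± 0.239 CPM in KRM (-4.57), mostly from replicate 3 at 34.5 CPM, so ligand and receptor lay on opposite sides. The same was seen for Lif at -5.63 and its receptor Lifr at 2.60. Osm, an interleukin-6 family cytokine, was at 588, 551 and 303 CPM in CD11cloMϕ and at 27.4, 24.9, 21.1 and 27 CPM in KRM (-4.26). Il6 was at 22.5 ± 3.69 CPM in CD11cloMϕ and 0.473 ± 0.416 CPM in KRM (-5.61) and Il4 had 1 count in all KRM libraries against 14.7, 18.5 and 4.15 CPM in CD11cloMϕ, a ratio of pooled counts of 575 (95% exact interval 102 to 22778). Tnf was not called, at 146 ± 69.6 CPM in KRM against 135 ± 103 CPM in CD11cloMϕ. On the KRM side were Tnfsf13b, the B cell survival factor BAFF, at 67.3 ± 3.96 CPM in KRM against 4.4 ± 1.77 CPM in CD11cloMϕ (log2 fold change 3.93, standard error 0.26, adjusted p = 1.59e-05), and Il12b, the p40 chain of interleukins 12 and 23, which had 1 count in CD11cloMϕ and 2.77 CPM in KRM, a ratio of pooled counts of 66.4 (95% exact interval 11.7 to 2644). Il10 had a log2 fold change of -2.60 without CD11cloMϕ replicate 3. For Il12b, the fitted log2 fold change, which depends on the prior count at so few counts, was 5.82 with all libraries, 7.89 without CD11cloMϕ replicate 3 and 5.21 without KRM replicate 4. For Lif, the fitted log2 fold change, which depends on the prior count at so few counts, was -5.63 with all libraries and -5.01 without CD11cloMϕ replicate 3. For Il4, the fitted log2 fold change, which depends on the prior count at so few counts, was -8.52 with all libraries and -10.05 without KRM replicate 2.

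Of the interleukin-1 family and inflammasome genes, 15 were tested, 0 were called higher in KRM, 4 were lower and 11 were not called. Without KRM replicate 3 there was 1 higher and 4 lower, and without both libraries numbered 3 there was 1 higher and 5 lower. Il1rn, the secreted receptor antagonist, was at 78.5, 47.2 and 41.2 CPM in CD11cloMϕ and at 2.3, 1.89, 1.96 and 1.44 CPM in KRM (log2 fold change -4.87, standard error 0.288, adjusted p = 8.88e-06), and Il1a differed by -3.35. Il1b was at 1051 ± 67.7 CPM in KRM against 927 ± 455 CPM in CD11cloMϕ, and was not called (log2 fold change 0.18, standard error 0.288, adjusted p = 0.649). The colony-stimulating factors and their receptors included 4 called genes among 9 tested, all lower in KRM: the ligand Csf1 at 65.6 ± 24.5 CPM in CD11cloMϕ and 8.55 ± 2.33 CPM in KRM (-2.95), Csf2rb (-1.71), Csf2rb2 (-1.07) and Csf3r (-1.46). Csf1r itself differed by less than 2-fold (0.71). Csf2rb2 was no longer called without CD11cloMϕ replicate 1 or 2, at -0.93 to -0.89. Csf2rb2 (-1.0, adjusted p = 0.0151) was not called with the replicate block. Csf3r (-1.43, adjusted p = 0.149) was not called in 1 edgeR fit over all 6 groups. Csf2rb2 (-0.93, adjusted p = 0.0135) was not called with limma on the log2 table.

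Genes of transforming growth factor β (TGF-β) signalling were called in both directions. TGF-β is secreted in a latent form and signals through a pair of kinase receptors. Of 18 tested, 7 were higher in KRM, 3 were lower and 8 were not called (median -0.00). Tgfbr1 was at 726, 1165, 1329 and 1364 CPM in KRM and at 115, 94.5 and 83.4 CPM in CD11cloMϕ (log2 fold change 3.55, standard error 0.265, adjusted p = 2.9e-05), Tgfbr2 differed by 1.96, and the related receptor Acvrl1 and the co-receptor Eng by 2.02 and 1.57. Of the ligands, Tgfb3 was at 23.5, 18.7, 22.3 and 24.6 CPM in KRM and had 1 count in CD11cloMϕ, a ratio of pooled counts of 597 (95% exact interval 107 to 23595). Tgfb2 was lower in KRM, at 5.65 ± 3.02 CPM in CD11cloMϕ and 0.182 ± 0.214 CPM in KRM (-4.70), and Tgfb1 did not reach 2-fold (-0.58). The latency protein Ltbp1 was at 13.7 ± 13.6 CPM in CD11cloMϕ and 0.234 ± 0.156 CPM in KRM (-5.73). With the replicate number as a block, 5 members were higher in place of 7. Ltbp1 had a log2 fold change of -4.60 without CD11cloMϕ replicate 2. Tgfb2 had a log2 fold change of -5.52 without KRM replicate 3. For Tgfb3, the fitted log2 fold change, which depends on the prior count at so few counts, was 8.83 with all libraries and 10.91 without CD11cloMϕ replicate 1.

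Of 20 angiogenic and growth factor genes tested, 4 were higher in KRM, 7 were lower and 9 were not called (median -1.04). The set higher in KRM was Pdgfb at 147 ± 21.3 CPM in KRM against 12 ± 5.06 CPM in CD11cloMϕ (log2 fold change 3.62, standard error 0.299, adjusted p = 4.79e-05), Pdgfa (2.09), Vegfb (2.04) and Igf1 (1.60). In CD11cloMϕ the endothelial growth factor Vegfa was at 109, 88.7 and 107 CPM against 2.3, 1.37, 9.45 and 2.78 CPM in KRM (log2 fold change -4.59, standard error 0.571, adjusted p = 0.000425), Thbs1, which encodes thrombospondin 1, an inhibitor of vessel growth, was at 1456 ± 771 CPM in CD11cloMϕ and 19.7 ± 2.81 CPM in KRM (-6.20), and the epidermal growth factor ligands Hbegf and Areg differed by -4.23 and -3.32. Vegfa and Vegfb therefore lay on different sides, while Pdgfa and Pdgfb were both higher in KRM and Hbegf and Areg were both lower. Hbegf and Vegfb had log2 fold changes of -3.34 and 3.13 without CD11cloMϕ replicate 3. Hbegf and Vegfa had log2 fold changes of -4.87 and -5.54 without KRM replicate 3. Vegfb was no longer called without CD11cloMϕ replicate 2 or KRM replicate 1, at 1.82 to 1.93. Igf1 (1.62, adjusted p = 0.107) and Vegfb (2.04, adjusted p = 0.0714) were not called in 1 edgeR fit over all 6 groups.

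Receptors for dying cells and modified lipids were present on both sides with different members. Of 22 tested, 6 were higher in KRM, 10 were lower and 6 were not called (median -0.08), with the gating gene Mertk among the 6 higher. Axl, a kinase that recognises phosphatidylserine on dying cells through Gas6, was at 1764, 1720.4, 1641 and 1844 CPM in KRM and at 122, 119 and 204 CPM in CD11cloMϕ (log2 fold change 3.55, standard error 0.23, adjusted p = 1.46e-05), while Gas6 was not called (0.12). Stab1, a scavenger receptor, and Itgb5, an integrin chain of phagocytosis, were higher by 2.58 and 2.57. Cd36, which takes up fatty acids and oxidised lipoprotein, was at 557 ± 53.8 CPM in KRM against 193 ± 123 CPM in CD11cloMϕ (1.53). Timd4, a direct phosphatidylserine receptor, was on the CD11cloMϕ side at 26, 15.6 and 89.5 CPM against 0.121, 0, 0.155 and 0.722 CPM in KRM (-7.44). Cd5l, a secreted scavenger protein (-8.59), the scavenger receptors Marco (-7.23) and Msr1 (-1.93) and the hemoglobin receptor Cd163 (-4.02) were lower in KRM too. Cd36, Marco and Timd4 had log2 fold changes of 2.19, -5.92 and -6.37 without CD11cloMϕ replicate 3. Timd4 had a log2 fold change of -8.55 without KRM replicate 4. For Cd5l, the fitted log2 fold change, which depends on the prior count at so few counts, was -8.59 with all libraries and -9.25 without KRM replicate 1.

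Of 22 C-type lectin and Trem receptors tested, 6 were higher in KRM, 8 were lower and 8 were not called (median -0.45). Clec4e, a sensor of mycobacterial glycolipid and dying cells, was at 493, 357 and 348 CPM in CD11cloMϕ and at 3.15, 3.15, 3.72 and 5.16 CPM in KRM (log2 fold change -6.71, standard error 0.233, adjusted p = 1.11e-06), its relative Clec4d differed by -5.74, and Trem1, an amplifier of inflammatory signals, by -6.13. Cd209f was lower as well (-7.13). Clec4b1 and Mgl2, a galactose lectin, were higher in KRM at 3.04 and 2.46, and the fungal receptor Clec7a was not called. Of 17 Siglec and inhibitory receptors, 5 were higher and 5 lower (median -0.10). Siglece was at 500.3, 430.4, 399 and 423 CPM in KRM and 72.3, 59.1 and 34 CPM in CD11cloMϕ (2.99), and Lair1, a collagen receptor, differed by 2.33. Siglecf, a receptor of eosinophils and alveolar macrophages, was at 138 ± 56 CPM in CD11cloMϕ and 1.43 ± 0.35 CPM in KRM (-6.57), and Siglecg differed by -6.26. In the Ms4a family, whose members resemble each other, 8 were tested, of which Ms4a7 and Ms4a14 were higher (4.60 and 4.32) and 5 were lower, with Ms4a8a at -7.84. Cd209f had a log2 fold change of -6.23 without CD11cloMϕ replicate 3.

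Of 20 Toll-like receptors, co-receptors and adaptors tested, 8 were higher in KRM, 2 were lower and 10 were not called (median 0.51). Without CD11cloMϕ replicate 1 the number lower was 1. Tlr12, a receptor for profilin of parasites, was at 70.8, 62.1, 63.1 and 70.0 CPM in KRM and at 3.21, 1.2 and 8.42 CPM in CD11cloMϕ (log2 fold change 3.95, standard error 0.532, adjusted p = 0.000649). Tlr3, the receptor for double-stranded RNA, differed by 2.89, Tlr1 by 2.20, and Unc93b1, which carries the endosomal receptors to their compartment, by 1.19. Tlr2 and Tlr7 were not called, and the adaptor Myd88 was lower in KRM (-1.19). Tlr12 had a log2 fold change of 4.88 without CD11cloMϕ replicate 3. Myd88 was no longer called without CD11cloMϕ replicate 1, at -0.89. Myd88 (-0.86, adjusted p = 0.00549) was not called with limma on the log2 table.

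Integrins and other adhesion molecules also divided by member. Of 17 integrin chains tested, 6 were higher in KRM, 8 were lower and 3 were not called (median -0.78), the sorting genes Itgax and Itgam being among the higher and the lower. Itga9 was at 350.0, 450.2, 447 and 483 CPM in KRM and at 14.1, 17.3 and 20.6 CPM in CD11cloMϕ (log2 fold change 4.64, standard error 0.199, adjusted p = 2.41e-06), and Itga8, a partner of Itgb1, differed by 3.55. Several leukocyte chains were lower in KRM, although Itgax, a sorting protein, was higher: Itgb2, the shared β chain of CD11b and CD11c, at 366 ± 39.6 CPM in KRM against 1306 ± 131 CPM in CD11cloMϕ (-1.83), Itgal (-2.34), Itga4 (-2.23) and Itgb7 (-2.22). Itgb3, a chain of platelets and of the vitronectin receptor, differed by -6.56. Of 23 adhesion molecules and tetraspanins tested 4 were higher, 5 were lower and 14 were not called. Vcam1, the ligand of integrin α4β1, was at 301, 323, 358 and 254 CPM in KRM and 21.8, 8.53 and 5.47 CPM in CD11cloMϕ (log2 fold change 4.69, standard error 0.469, adjusted p = 0.000134). Cd81, a tetraspanin, was at 2788, 2147, 1943 and 2136 CPM in KRM and 119, 134 and 167 CPM in CD11cloMϕ (4.01). Vcam1 was thus on the KRM side and its integrin chain Itga4 on the CD11cloMϕ side. Cd24a, a glycosylated surface anchor protein, was at 519.7, 729 and 379 CPM in CD11cloMϕ and at 3.4, 3.47, 5.99 and 3.09 CPM in KRM (-7.04). Cd44, a hyaluronan receptor, was lower by a log2 fold change of -2.46. Vcam1 had a log2 fold change of 5.48 without CD11cloMϕ replicate 1.

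The list of S100 proteins, annexins and actin-binding proteins was lower in KRM in most members and higher in none. These small calcium-binding proteins and their partners organise the membrane and the cytoskeleton of migrating cells. Of 22 tested, 0 were higher in KRM, 17 were lower and 5 were not called (median -3.46), and the counts were the same with the replicate block and without the libraries numbered 3. Ahnak, a large scaffold protein of the membrane, was at 1415, 1637 and 1891 CPM in CD11cloMϕ and at 27.9, 32.4, 33.7 and 37.7 CPM in KRM (log2 fold change -5.64, standard error 0.174, adjusted p = 8.53e-07). S100a4, S100a6, S100a10 and S100a11 differed by -5.80, -5.0, -4.95 and -3.97. Anxa2, the partner of S100a10, was at 1383, 1214 and 798 CPM in CD11cloMϕ and at 57.5, 42.9, 33.3 and 52.3 CPM in KRM (-4.61), and Anxa1, a mediator that limits inflammation, differed by -5.48. Vim, which encodes the intermediate filament vimentin, was at 1159, 1089 and 1087 CPM and at 52.9, 52.5, 37.5 and 62.5 CPM (-4.44), opposite to the intermediate filament gene Nes above. S100a8 and S100a9, which neutrophils and classical monocytes share, differed by -6.95 and -7.12, and Anxa5 was not called (-0.39). The monocyte and neutrophil sums given above moved in the same direction as this list, and their part in it was not tested. The lists share members, as S100a4 is also on the classical monocyte list and S100a8 and S100a9 on the neutrophil list. S100a8 and S100a9 had log2 fold changes of -5.71 and -5.91 without CD11cloMϕ replicate 1. S100a9 had a log2 fold change of -7.80 without KRM replicate 1.

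Coagulation genes differed widely in both directions. Of 16 tested, 4 were higher in KRM, 9 were lower and 3 were not called (median -4.18). F13a1, the chain of factor XIII that crosslinks fibrin, was at 4090.4, 3047 and 1524 CPM in CD11cloMϕ and at 24.3, 30.8, 23.2 and 28.4 CPM in KRM (log2 fold change -6.76, standard error 0.361, adjusted p = 5.81e-06). It is also on the list of classical monocyte genes, whose sum was lower in KRM, and the part of monocyte markers in these differences was not tested. F10 differed by -6.64, and F7 had 0 counts in KRM and 5.22 CPM in CD11cloMϕ, at least 81.4-fold lower in KRM if 3 counts over the group are taken as the floor. Plaur, the urokinase receptor, differed by -6.06, while its ligand Plau was higher, at 9.5 ± 1.3 CPM in KRM against 1.79 ± 1.48 CPM in CD11cloMϕ (2.39). The inhibitor Tfpi (1.82), the serpin family gene Serpinf1 (3.52) and the protein C receptor Procr (1.51) were the other 3 higher in KRM. Serpinb2, an intracellular inhibitor of plasminogen activators, was at 113, 74.8 and 28.8 CPM in CD11cloMϕ and did not pass 0.206 CPM in KRM. Plau and Procr had log2 fold changes of 3.23 and 2.11 without CD11cloMϕ replicate 3. For Serpinb2, the fitted log2 fold change, which depends on the prior count at so few counts, was -9.59 with all libraries and -12.33 without KRM replicate 3. Procr was no longer called without CD11cloMϕ replicate 1 or 2 or KRM replicate 1, 2, 3 or 4, at 1.13 to 1.60. Procr (1.52, adjusted p = 0.187) was not called in 1 edgeR fit over all 6 groups. Procr (1.49, adjusted p = 0.0729) was not called without the filter on low counts.

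Genes that mark alternatively activated macrophages were called more often lower than higher in KRM. Of 13 tested, 2 were higher in KRM, 8 were lower and 3 were not called (median -4.02). Chil3, a chitinase-like protein, was at 4509, 3365 and 452 CPM in CD11cloMϕ and at 17.8, 16.3, 18 and 11.9 CPM in KRM (log2 fold change -7.44, standard error 0.753, adjusted p = 0.000143), and Retnla was at 1449.9 ± 584 CPM in CD11cloMϕ and 7.95 ± 0.344 CPM in KRM (-7.51), with reads that may be shared with Retnlg. The inducible nitric oxide synthase Nos2 had 0 counts in KRM and 0.183 CPM in CD11cloMϕ, too few to test. The mannose receptor Mrc1 was higher in KRM at 265, 321, 387 and 364 CPM against 91, 86.5 and 183 CPM (log2 fold change 1.47, standard error 0.287, adjusted p = 0.00417), as was Mgl2. A list of 28 genes known from macrophages of the serous cavities overlapped with these: of 26 tested 0 were higher, 23 were lower and 3 were not called, with a median of -7.47, or -7.04 with Naip1, which had 0 counts in KRM, at its bound. The transcription factor that defines peritoneal macrophages, Gata6, was at 0.0129 CPM in KRM against 1.39 CPM in CD11cloMϕ, too low to test, and Icam2, a surface marker of the same cells, differed by -1.09. The tetraspanin Cd9 was at 222 ± 38.4 CPM in KRM against 133 ± 11.7 CPM in CD11cloMϕ and was not called. Marker genes of mesothelium, the lining of those cavities, summed to 2.43 to 12.3 CPM in KRM and 6.54 to 42.9 CPM in CD11cloMϕ, with 0 of 3 tested called, or 1 lower without CD11cloMϕ replicate 1 or 3 and without both libraries numbered 3, and these, like the monocyte markers, were not tested for their part in the list. Icam2 was no longer called without CD11cloMϕ replicate 2 or KRM replicate 3, at -0.99 to -0.97. Mrc1 (1.48, adjusted p = 0.0667) was not called in 1 edgeR fit over all 6 groups. Icam2 (-0.90, adjusted p = 0.00811) was not called with limma on the log2 table.

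Of 18 genes best known from microglia, the resident macrophages of the brain, 10 were higher in KRM, 1 was lower and 7 were not called (median 1.5). The 10 include Cx3cr1, by whose protein the study told the populations apart. Olfml3, a secreted matrix protein, was at 43.5, 33.9, 31.4 and 33 CPM in KRM and at 4.39, 4.57 and 2.19 CPM in CD11cloMϕ (log2 fold change 3.25, standard error 0.295, adjusted p = 7.89e-05), and Tmem119, a membrane protein, differed by 5.15. Not every member followed: P2ry12, a purine receptor, was at 25.1 ± 4.39 CPM in KRM against 16.8 ± 2.04 CPM in CD11cloMϕ and was not called, Trem2 was at 29.1 ± 4.85 CPM in KRM against 39.7 ± 12.1 CPM in CD11cloMϕ and was not called, and the microglial transcription factor Sall1 was too low to test in both.

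**Figure D5:**
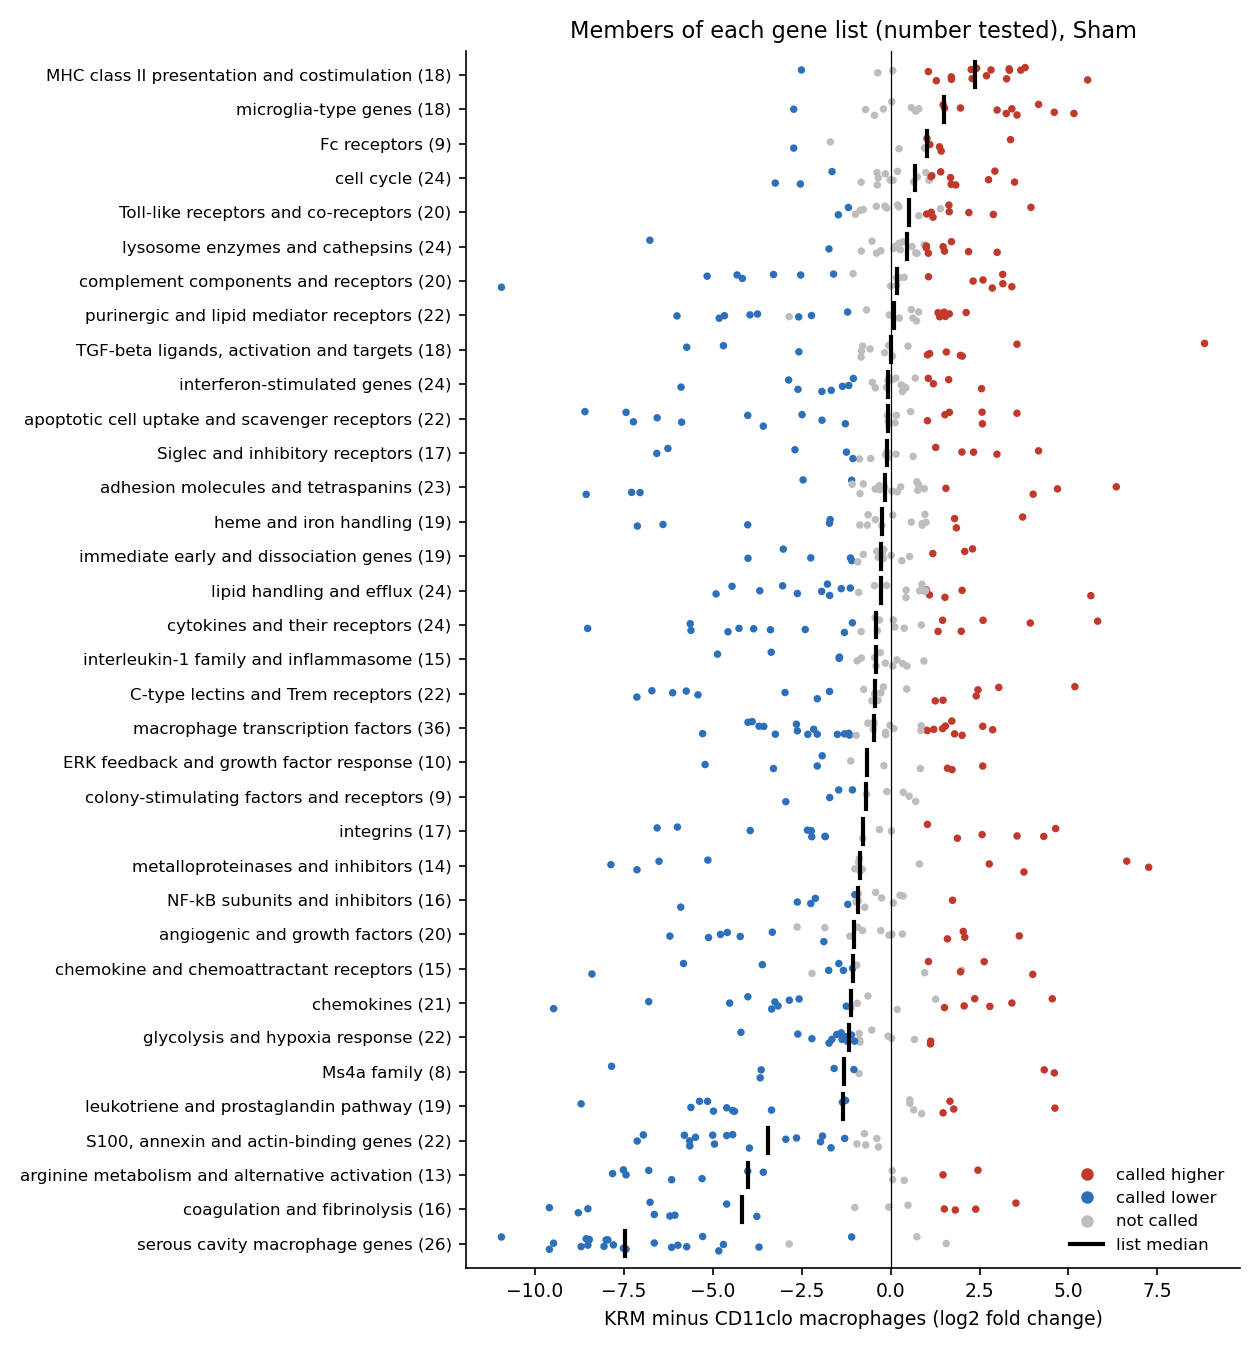
Log2 fold change, KRM against CD11clo macrophages, of each tested member of the 35 gene lists, with red for members called higher in KRM, blue for those called lower, grey for those not called and a black bar for the list median. The list of MHC class II genes has the highest median (2.36) and that of serous cavity macrophage genes the lowest (-7.47), and most lists hold members on both sides of 0.

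Lipid, lysosomal and iron genes differed in part. Of 24 genes of lipid handling tested, 5 were higher in KRM, 10 were lower and 9 were not called (median -0.28). The number higher was 3 without KRM replicate 3 or CD11cloMϕ replicate 2 and 8 without CD11cloMϕ replicate 3. Apoe, the main apolipoprotein of macrophages, was at 10505, 7669, 7348 and 5307 CPM in KRM and at 3364, 2136 and 5330.0 CPM in CD11cloMϕ (log2 fold change 1.09, standard error 0.341, adjusted p = 0.0326), with overlapping ranges. Pparg, a nuclear receptor of fatty acid metabolism, was at 70.9 ± 6.78 CPM in KRM against 17.6 ± 5.89 CPM in CD11cloMϕ (2.01). The sterol-sensing receptor Nr1h3 was lower (-2.62), as were Apoc2 (-4.91), Fabp5 (-3.68) and Pltp (-1.94), while the efflux pumps Abca1 and Abcg1 were not called (0.44 and 0.82). Of 24 lysosomal genes tested, 8 were higher in KRM, 2 were lower and 14 were not called (median 0.47): Ctsf was higher at 2.19, Lgmn, an endopeptidase, at 1.71, and Cst3, an inhibitor of cathepsins, at 1.48, whereas Ctsd and Cst7 were lower (-1.73 and -6.77). Cathepsins B and L and the precursor Psap were not called. Without KRM replicate 1 or CD11cloMϕ replicate 3 the number higher was 5. Of 19 iron and heme genes tested, 3 were higher in KRM, 5 were lower and 11 were not called (median -0.25). The number higher was 5 without CD11cloMϕ replicate 3, without both libraries numbered 3 and with the replicate block. The iron exporter Slc40a1 (ferroportin) was at 73.3, 85.5, 103 and 73.6 CPM in KRM and at 45.9, 13.5 and 10.4 CPM in CD11cloMϕ (log2 fold change 1.85, standard error 0.487, adjusted p = 0.0164), Spic, the factor of red pulp macrophages, differed by 1.80, and Epor, the erythropoietin receptor, was at 22.3 ± 4.96 CPM in KRM against 1.68 ± 0.934 CPM in CD11cloMϕ (3.71). Haptoglobin (Hp) was at 738 ± 426 CPM in CD11cloMϕ and 5.44 ± 2.38 CPM in KRM (-7.12), and the transferrin receptor Tfrc differed by -1.72. Slc40a1 had a log2 fold change of 2.83 without CD11cloMϕ replicate 1. Ctsf and Pltp had log2 fold changes of 3.17 and -1.34 without CD11cloMϕ replicate 3. Apoe was no longer called without CD11cloMϕ replicate 1 or 2 or KRM replicate 1, 2 or 3, at 0.84 to 1.12. Slc40a1 was no longer called without CD11cloMϕ replicate 2, at 1.57. Tfrc was no longer called without CD11cloMϕ replicate 3, at -0.95. Apoe (1.10, adjusted p = 0.377), Slc40a1 (1.88, adjusted p = 0.0647) and Spic (1.80, adjusted p = 0.109) were not called in 1 edgeR fit over all 6 groups. Apoe (1.08, adjusted p = 0.0549) was not called without the filter on low counts. Apoe (0.59, adjusted p = 0.274) was not called with limma on the log2 table.

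Of 22 tested genes of glycolysis and of the response to low oxygen, 2 were higher in KRM, 13 were lower and 7 were not called (median -1.16). Pkm, pyruvate kinase, was at 1703, 1474 and 988 CPM in CD11cloMϕ and at 333, 296, 281 and 289 CPM in KRM (log2 fold change -2.21, standard error 0.189, adjusted p = 5.73e-05). Eno1, which acts in the step before it, was at 1796, 1632 and 1230.2 CPM and at 539.6, 476, 501 and 463 CPM (-1.65), and Ldha, which turns pyruvate into lactate, differed by -1.10. The transporters of hexoses Slc2a6 and of lactate Slc16a3 differed by -4.21 and -2.61, and the oxygen-regulated factor Hif1a by -1.36. The 2 members higher in KRM, Pfkfb3 (1.13) and Pfkfb4 (1.12), set the level of the activator of phosphofructokinase. The monocyte and neutrophil markers moved the same way as the lower members, and whether they contribute was not tested. Gapdh did not reach 2-fold (-0.88), and neither did Slc2a3 (-0.07) and Bnip3 (0.03). Ldha was no longer called without CD11cloMϕ replicate 1, at -0.97. Pfkfb3 was no longer called without CD11cloMϕ replicate 2, at 0.98. Ldha (-0.73, adjusted p = 0.00123) was not called with limma on the log2 table.

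Transcription factors of macrophages were called in both directions. Of 36 tested, 9 were higher in KRM, 15 were lower and 12 were not called (median -0.48). On the KRM side, Maf, a factor of mature macrophages, was at 90.2, 86.5, 82.2 and 71.9 CPM against 28.8, 31.5 and 46.6 CPM in CD11cloMϕ (log2 fold change 1.21, standard error 0.186, adjusted p = 0.00128), and Mef2c differed by 1.54, Runx1 by 1.72 and Etv5, a factor downstream of growth factor signals, by 2.59. On the other side, Cebpb, the factor of monocyte differentiation and the acute phase, was at 1970.2, 1583 and 2157 CPM in CD11cloMϕ and at 209.9, 154, 136 and 143 CPM in KRM (log2 fold change -3.56, standard error 0.198, adjusted p = 6.67e-06). Nr4a1, on which nonclassical monocytes depend, was at 1653, 1613 and 2314 CPM and at 132, 125, 98.6 and 106 CPM (-4.01). Bhlhe40 differed by -5.28, the retinoic acid receptor Rara by -3.89, Id3 by -3.24 and Ahr by -2.33. Bhlhe41, the close relative of Bhlhe40, was higher, at 4.63 ± 1.26 CPM in KRM against 0.615 ± 0.602 CPM in CD11cloMϕ (2.87). Spi1 (PU.1), which all macrophages need, was at 431 ± 74.8 CPM in KRM against 597 ± 32.8 CPM in CD11cloMϕ and did not reach 2-fold, and Irf8 (0.99) and Klf6 (-0.14) were not called. Bhlhe41 and Id3 had log2 fold changes of 3.75 and -2.39 without CD11cloMϕ replicate 3. Bhlhe41 was no longer called without CD11cloMϕ replicate 1 or KRM replicate 1 or 4, at 2.68 to 2.92. Bhlhe41 (2.88, adjusted p = 0.0522) and Maf (1.23, adjusted p = 0.285) were not called in 1 edgeR fit over all 6 groups.

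Of 16 NF-kB subunits and inhibitors tested, 1 was higher in KRM, 6 were lower and 9 were not called (median -0.91). Ikbke, a kinase of the pathway, was at 67.1 ± 12.6 CPM in CD11cloMϕ and 1.12 ± 0.164 CPM in KRM (log2 fold change -5.90, standard error 0.213, adjusted p = 1.31e-06), and the feedback inhibitors Tnfaip3 and Nfkbia differed by -2.62 and -2.24. The subunits Rela, Rel and Relb were not called. Immediate early genes, which also respond to enzymatic dissociation of a tissue, were mostly not called: of 19 tested, 3 were higher in KRM, 5 were lower and 11 were not called (median -0.27), and without KRM replicate 3 the number lower was 3. Fos was at 5128, 4892, 3717 and 6432 CPM in KRM and at 5409, 7788 and 4612 CPM in CD11cloMϕ (log2 fold change -0.24, standard error 0.241, adjusted p = 0.468), and Egr1 differed by 0.01. The heat shock genes Hspa1a and Hspa1b, near-identical neighbours between which reads may be split, were higher in KRM by 2.09 and 2.30, with Hspa1b at 10969, 11821, 9699 and 12705 CPM against 1399, 2682 and 2781 CPM. Jun was higher (1.19) and Ier3 lower (-3.02). Of 10 tested genes of feedback on the kinase ERK 3 were higher, 4 were lower and 3 were not called. Spred1 and Spred2 were higher in KRM (1.73 and 1.60) and Dusp5 was lower, at 242 ± 66.7 CPM in CD11cloMϕ and 6.51 ± 2.04 CPM in KRM (-5.21). Jun was no longer called without CD11cloMϕ replicate 1, at 0.95. Jun (1.22, adjusted p = 0.0626) was not called in 1 edgeR fit over all 6 groups. Spred2 (0.94, adjusted p = 0.00831) was not called with limma on the log2 table.

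Cell cycle genes were called in both directions. Of 24 tested, 9 were higher in KRM, 3 were lower and 12 were not called (median 0.70). Ccnd1 and Ccnd2 were higher in KRM, Ccnd2 at 105, 97.1, 67 and 88.9 CPM against 6.64, 6.85 and 10.4 CPM (log2 fold change 3.49, standard error 0.238, adjusted p = 1.91e-05) and Ccnd1 with a log2 fold change of 2.93. Ccnd3 went the other way, at 502, 524 and 326 CPM in CD11cloMϕ and at 61.9, 41.6, 39 and 48.3 CPM in KRM (log2 fold change -3.24, standard error 0.225, adjusted p = 2e-05). The helicase genes Mcm2, Mcm3 and Mcm6 were higher by 1.70, 1.16 and 1.41. Mki67, which marks dividing cells, was at 5.58 ± 0.622 CPM in KRM against 9.93 ± 4.69 CPM in CD11cloMϕ and was not called, and the same held for Pcna and Ccna2. The inhibitor Cdkn1a was lower in KRM (-2.54).

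Interferon-stimulated genes did not move as 1 set. Of 24 tested, 4 were higher in KRM, 8 were lower and 12 were not called (median -0.06). The Ifitm genes, which block the entry of viruses, were lower in KRM, with Ifitm3 at 1851, 1804 and 1594 CPM in CD11cloMϕ and 369, 259, 211 and 313 CPM in KRM (log2 fold change -2.60, standard error 0.199, adjusted p = 3.25e-05) and Ifitm6 at -5.89. Ifi44 and Ifit2 were higher (2.56 and 1.63), and Isg15, Mx1, Ifit1 and Rsad2 were not called. Of 22 receptors for purines, sphingosine phosphate and related lipids tested, 6 were higher in KRM, 8 were lower and 8 were not called (median 0.10). P2ry6, a receptor for uridine diphosphate, was at 429, 367, 321 and 362 CPM in KRM and at 93.6, 81.3 and 79.4 CPM in CD11cloMϕ (log2 fold change 2.12, standard error 0.14, adjusted p = 1.57e-05), and the ATP-gated channel P2rx7 differed by 1.5. The adenosine receptors Adora2a and Adora2b were lower in KRM (-4.67 and -6.00). Gpr183, the receptor for oxysterols made from the product of Ch25h, was higher, at 139.9 ± 16.1 CPM in KRM against 44.6 ± 8.45 CPM in CD11cloMϕ (1.65). Ifit2 (1.65, adjusted p = 0.0507) was not called in 1 edgeR fit over all 6 groups.

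The same comparison was made in RAS kidneys, with 3 KRM and 4 CD11cloMϕ libraries, and called 1023 of 13179 genes (7.76%). That count rests on single libraries, since it was 0 without KRM RAS replicate 2 or 3 and 2623 without KRM RAS replicate 1, whose column does not correspond between the deposited tables. The difference between the 2 comparisons, tested as an interaction, was called for 34 of 13877 genes (0.245%), and for 1973 without that library. Of the genes of the lists and selections above, 12 were among the 34. For 11 of them, Ikbke, Dusp5, C3, Cfp, Bhlhe40, Cd24a, Ahnak, S100a10, Anxa1, Capg and Fabp5, the level was lower in KRM in Sham and less so, or not so, in RAS. Ncr1, a receptor of NK cells, had too few counts to be tested in Sham. Bhlhe40 had a log2 fold change of -5.28 in Sham and 0.15 in RAS, a difference of 5.42 (adjusted p = 0.0377).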

How the data were processed

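RNA from flow-sorted kidney macrophages was amplified with the SMART-Seq v4 Ultra Low Input kit, and libraries were made with Nextera XT. The authors aligned reads to mm10 with OSA, using Ensembl R83 genes, and the labels name DESeq2 as a processing tool. The deposited table holds estimated counts per gene, not normalized, which were rounded to whole numbers here, with rows of the same symbol summed. A second deposited table, on a log2 scale, was used in alternatives only. Amplification from few cells adds noise to genes with few counts, and gene length and GC content were not corrected. The KRM and CD11cloMϕ libraries held 8573925 to 18592376 counts each.

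The groups were read from the library names in the labels. Differences were tested with edgeR 4.0.16 in R 4.3.3 by a two-sided quasi-likelihood F test with TMM factors and Benjamini-Hochberg adjustment over all genes tested. Genes were kept by filterByExpr (min.count 10, min.total.count 15). An adjusted p under 0.05 and a fold above 2 made a call, and the prior count was 2. CPM values, SDs and ratios of pooled counts with exact intervals were computed from the same counts. A gene with 0 counts in a population was given a floor of 3 counts over that group, and such intervals and floors cover counting error only. The test was checked on simulated counts. Replicate numbers were compared across the populations by the correlation of deviations from the group means. It was 0.216, 0.259 and 0.566 for the same number and -0.478 to 0.232 for other numbers. The value of 0.566 belongs to number 3, whose libraries held the most proximal tubule RNA. The values for numbers 1 and 2 were close to the highest for other numbers. Whether the numbers pair the libraries was not tested. The main fit had no block, and a fit with the number as a block was an alternative. Other alternatives were limma 3.58.1 on the log2 table, DESeq2 1.42.0, other scalings and filters, 1 edgeR fit in which the libraries of all 6 groups share an estimate of the spread, and leaving out libraries.

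The comparison and the gene lists were chosen with earlier results of these data known. Genes were named by a rule: the 12 largest called differences in each direction without overlap and with an average log2 CPM of at least 5, the 5 genes with the most counts in each population, the 3 largest differences and the gene with the most counts of each list, and the sorting proteins. Other list members named beside their counts were chosen after their values were seen. Promoter sequences came from RefSeq (GRCm38.p6). Some genes that this rule selects are not reported here.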

Additional observations from a re-analysis of the deposited data

Results flagged for a closer look

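In 95 values with 4 KRM libraries, 8 had a library whose gap to its nearest neighbour, as a share of the group's range, passed the 95% critical value of Dixon, and chance gives about 1 in 20. The gap was 0.964 for the summed proximal tubule markers, which were at 9006.6 CPM in replicate 3 and at 1170 to 1455.2 CPM in the other KRM libraries, and 0.987 for the summed distal tubule and collecting duct markers, at 223.18 CPM in replicate 3 and 11.03 to 13.71 CPM in the others. Replicate 3 was also the low library for the summed genes of apoptotic cell uptake and scavenging (0.983), at 5351.4 CPM against 5493.5 to 5496.1 CPM. Replicate 1 was the high library for H2-Ab1 (0.836), Slamf9 (0.835), Fcgr4 (0.89) and the summed serous cavity macrophage genes (0.854), and replicate 4 was the low library for Cd4 (0.898), at 75.7 CPM against 103 to 106 CPM.

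The interaction was called for 34 genes in all, and 12 of them were on the gene lists or among the genes named here. For these 12 the edgeR interaction test over all libraries of the 4 groups called the difference between the populations unlike in Sham and RAS kidneys. The log2 fold change of KRM against CD11cloMϕ was higher in RAS by 6.56 for Cd24a (adjusted p = 0.0394), by 5.42 for Bhlhe40 (adjusted p = 0.0377) and by 3.36 for C3 (adjusted p = 0.0377). It was higher by 3.54 for Ikbke (adjusted p = 0.00912), by 3.47 for Dusp5 (adjusted p = 0.0251) by 2.42 for Ahnak (adjusted p = 0.0446) and by 3.14 for Capg (adjusted p = 0.0251). For S100a10 it was higher by 3.77 (adjusted p = 0.0263), for Anxa1 by 3.0 (adjusted p = 0.0458), for Fabp5 by 2.26 (adjusted p = 0.0488) and for Cfp by 1.85 (adjusted p = 0.0414). Ncr1, an NK cell receptor with too few counts to be tested in Sham, differed by 8.94 (adjusted p = 0.0446). The RAS libraries of KRM include replicate 1, whose column does not correspond between the deposited tables. Without it the interaction was called for 1973 genes, and the values of these 12 without it are not given here.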

How the results depend on the processing

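The count of 2892 called genes stayed within 1.5 times under every other scaling, filter, tool and left-out library of the Sham groups, between 2063 with at least 10 counts in every library and 3480 without both libraries numbered 3, and between 2575 and 3444 when 1 library was left out. With the replicate block 2682 genes were called, 2541 of them shared with the fit without it. The genes called changed more in other settings. Limma on the log2 table called 2572, of which 1995 were shared with the main fit. The fit over all 6 groups called 2558, of which 2376 were shared. No gene named by the rule lost its call with the block, but Csf2rb2 (-1.0) and Trim21 (0.97), named beside their lists, did. Without the fold threshold 5178 genes passed, 2413 higher and 2765 lower. Of 178 genes named by the rule 152 kept their call and direction throughout. Of 3299 gene and setting pairs 40 lost the call and 14 gained one. The number of called members of a list moved by over 1.5 times in 47 of 969 list and setting pairs. Among others, in 1 fit over all 6 groups it was 6 for nonclassical monocytes, 7 for chemoattractant receptors, 3 for conventional dendritic cells, 1 for erythroid cells and platelets and 3 for fibroblasts and pericytes. With limma it was 13 for heme and iron, 2 for B and plasma cells and 1 for mast cells, basophils and eosinophils. With at least 10 counts in every library, which leaves fewer genes tested, it fell in 14 lists. The pairs that changed sign all belong to genes that were not called. They were Clec7a (0.024), Grn (0.132), Klf6 (0.235) and Tgfbi (0.351 and 0.352) with limma on the log2 table. Tgfbi changed to 0.01 with the block and to 0.255 without CD11cloMϕ replicate 1. Dcn was at 0.60 without both libraries numbered 3, 0.131 without KRM replicate 3 and 0.377 without CD11cloMϕ replicate 3, which also turned Gpm6a (0.166) and Umod (3.312). Without CD11cloMϕ replicate 2 the sign changed for Fos (0.016), Il1b (-0.083), Klf6 (0.105) and Wdfy4 (0.018), the last also without CD11cloMϕ replicate 1 (0.086) and KRM replicate 1 (0.09). Gpx3 was at -0.872 without KRM replicate 3. When 1 library was left out, the values of these genes ranged from -0.424 to 0.377 (Dcn), -0.385 to 0.016 (Fos), -2.989 to 0.166 (Gpm6a), -0.872 to 2.584 (Gpx3), -0.083 to 0.654 (Il1b), -0.289 to 0.105 (Klf6), -0.26 to 0.255 (Tgfbi), -5.31 to 3.312 (Umod) and -0.215 to 0.09 (Wdfy4).

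In RAS kidneys the count of 1023 ranged from 0 to 2623 when 1 library was left out, with 0 to 1629 higher and 0 to 994 lower. The 34 genes of the interaction became 59 with size factors by the median of ratios, 51 and 8 by direction, and 1973 without KRM RAS replicate 1, 1076 and 897 by direction. The causes were not tested. With 3 and 4 libraries a group, genes at a few counts are measured poorly, and proximal tubule RNA differed widely between replicates.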
